A study of Homo sapiens with 18 samples.

Results

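U937 is an established human line grown from a histiocytic lymphoma, with the features of promonocytes, cells one step before the blood monocyte. The comparison described here sets 3 arrays of U937 given phorbol 12-myristate 13-acetate (PMA), at 30 nM over 3 days, against 3 arrays of U937 treated with its solvent dimethyl sulfoxide (DMSO) at a 1000 fold dilution. These 6 arrays were chosen by their titles out of 18, the other 12 being the same pair of treatments in the myeloid leukaemia lines HL60 and THP-1, with 3 arrays in each group. All cells grew in RPMI1640 with fetal calf serum, with no genetic change named in the labels, and were compared as bulk cultures of a single line, so that fewer cells of a type and less RNA per cell cannot be told apart. Total RNA was converted to biotin-labelled cDNA and read on a human exon array, which carries probe sets for single exons. The labels number the arrays of a group without stating that they are separate cultures, and p-values then measure only the spread between these samples. A gene's level is the mean log2 value of its probe sets, after each array was centred on its own median, and 16260 genes with 3 or more probe sets were tested.

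PMA stands in for diacylglycerol, the lipid messenger that recruits protein kinase C and other proteins with a C1 domain to membranes. Protein kinase C then feeds the RAS, RAF, MEK and ERK cascade, whose nuclear targets include the AP-1 factors of the FOS and JUN families and the EGR factors. Monocytic lines treated with phorbol esters are known to stop dividing, attach to plastic and take on macrophage traits. After days of exposure, several protein kinase C proteins are known to be degraded, a step that mRNA levels do not show.

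Before centring, the medians of the U937 arrays were 6.74, 6.18 and 6.86 log2 with PMA, against 6.95, 6.72 and 6.83 with DMSO. The array PMA 2 held 83228 distinct values, against 214471 to 220516 on the other 17 arrays of the series, and both U937 arrays numbered 2 shared at most 5 exactly tied values with any other U937 array, against 58 to 82 between the rest. The arrays numbered 3 stood somewhat apart within their groups: over all probe sets, PMA 3 correlated with PMA 1 and PMA 2 at 0.941 and 0.937, against 0.959 between PMA 1 and PMA 2, and DMSO 3 with DMSO 1 and DMSO 2 at 0.950 and 0.949, against 0.977 between DMSO 1 and DMSO 2. No detection calls were used, so levels below 5.17, the 30th percentile of all probe sets, are approximate. Both U937 means lay below it for 4294 of the genes tested. Lineage markers were read as a check: the monocytic genes SPI1, CD33, LYZ, CD4 and CSF1R lay above that percentile on every U937 array. CD14 lay below it in DMSO 2 (4.99) and ITGAM in DMSO 1 and DMSO 2 (5.15 and 5.09). The primary granule proteases ELANE, PRTN3 and AZU1 lay above it on every U937 array, and CTSG on all but PMA 3 (4.86). MPO, the peroxidase of the same granules, had 5.42, 5.63 and 5.08 with PMA, against 4.92, 4.83 and 5.05 with DMSO.

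With PMA, the secreted adhesion protein osteopontin, the matrix proteases MMP1, MMP7 and MMP9, the integrin chains of phagocytes and several chemokines rose in U937, and 39 of 41 genes of DNA replication, 40 of 41 of mitosis and 20 of 27 of ribosome assembly fell. limma called 4667 genes at an adjusted p under 0.05, which is 28.7% of those tested, with 2350 higher (14.5%) and 2317 lower (14.2%), and 6920 with the array number as a block, 3486 higher and 3434 lower. Without centring, on the values as deposited, 895 were called higher and 2678 lower, so that 74.95% of the calls were lower against 49.65% after centring. The median gene changed by 0.171 log2 after centring and by -0.069 as deposited, and small changes below are to be read against 0.171. Counts of called genes in the lists below are to be read against 14.5% higher and 14.2% lower. The lists were chosen with earlier results of these data known, so an excess over these shares is no test. Over the 11766 genes above the 30th percentile, 1963 were called higher and 2198 lower. As deposited, the change of each gene was lower by 0.24, and the list medians moved with it. Leaving out both arrays numbered 2 left 3106 genes called, of which 3035 were among the 4667 with the same sign, and leaving out both numbered 3 left 4503, of which 3736 were. The middle of the distribution was narrow, with the 10th percentile of the change at -0.83 and the 90th at 0.62. At least 2-fold, 799 genes were called higher and 1047 lower, and at least 16-fold 32 higher and 1 lower, so the largest shifts ran upward. The arrays of the PMA and DMSO groups did not overlap for 7427 genes (45.7%), among them 2291 of those called higher and 2260 of those called lower.

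The largest increase was that of SPP1, which encodes osteopontin, a secreted ligand of integrins and CD44. SPP1 had 12.52, 12.44 and 11.76 with PMA, against 4.91, 4.92 and 4.47 with DMSO, a change of 7.47 ± 0.35, adjusted p = 4.51e-10, or 178-fold from a DMSO level below the 30th percentile. TDO2, the tryptophan dioxygenase that opens the kynurenine pathway and is best known from liver, had 10.80, 8.92 and 9.33 with PMA, against 3.17, 3.22 and 3.14 with DMSO (6.51 ± 0.55, adjusted p = 2.82e-07). The 3 PMA arrays lay far above the 3 DMSO arrays for both genes. RGS1, which shortens G protein signals downstream of chemokine receptors, rose by 6.66 ± 0.49, and DCSTAMP, a membrane protein needed for the fusion of macrophages and osteoclasts, by 6.42 ± 0.26. AQP9, a channel for water and glycerol, rose by 6.14 ± 0.37 and CD52, the short glycoprotein anchored by GPI on leukocytes, by 5.94 ± 0.37. Among surface proteins, the lysophosphatidylserine receptor GPR34 rose by 5.93 ± 0.45, and the tetraspan proteins TM4SF19, EMP1 and TM4SF1 by 5.91 ± 0.28, 5.40 ± 0.24 and 5.37 ± 0.47. ZFP36L1, a protein that promotes the decay of mRNAs with AU-rich elements, had 10.42, 9.99 and 10.47 with PMA, against 4.85, 4.52 and 5.04 with DMSO. FABP4, the fatty acid carrier of adipocytes and macrophages, rose by 5.36 ± 0.67, and the monocyte chemoattractant CCL7 by 5.22 ± 0.44.

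The largest decrease was in CTSG, cathepsin G of the primary granules, which had 6.38, 6.51 and 4.86 with PMA, against 10.93, 11.17 and 10.12 with DMSO (-4.82 ± 0.50, adjusted p = 2.56e-06), and which was the gene called at least 16-fold lower. MYB, a transcription factor of proliferating progenitors, had 7.99, 8.32 and 7.95 with PMA, against 10.76, 10.74 and 11.07 with DMSO (-2.77 ± 0.31, adjusted p = 5.95e-06). ELANE, neutrophil elastase, fell by 2.71 ± 0.24. None of these 3 genes had a PMA array within the range of its DMSO arrays. Of the other large decreases, DTL, GINS2, DSCC1 and ATAD5 belong to the replication fork or its checkpoint, and fell by 2.81 ± 0.21, 2.78 ± 0.30, 2.77 ± 0.48 and 2.74 ± 0.22. ERCC6L, a helicase at mitotic DNA bridges, fell by 2.87 ± 0.32, and MND1, known from meiotic recombination, by 2.72 ± 0.45. The rest were the lysosome-associated protein LAMP5 (fell by 3.93 ± 0.37), PLAC8 (fell by 3.43 ± 0.34), the chaperone HSPA4L (fell by 2.86 ± 0.29), the lectin-like CLECL1 (fell by 2.83 ± 0.24), the calcium-binding NUCB2 (fell by 2.82 ± 0.43) and the catenin relative CTNNAL1 (fell by 2.68 ± 0.61).

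**Figure D1:**
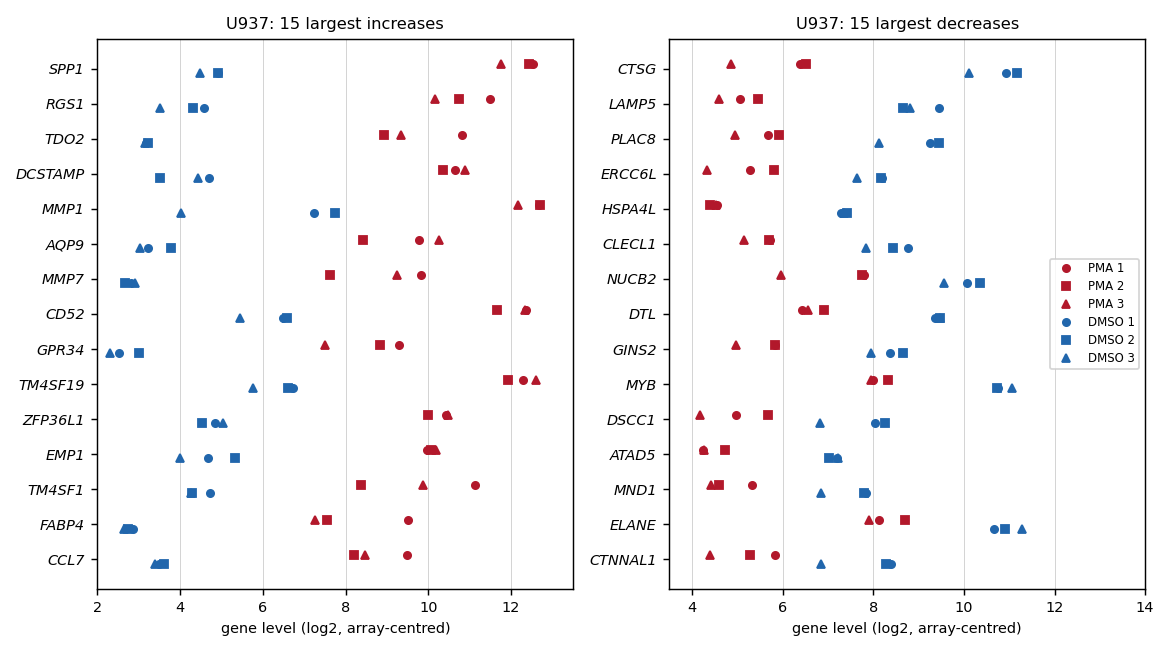
Level of the 15 genes with the largest called increases (left) and decreases (right) in each U937 array, in log2 units after centring, with PMA arrays in red and DMSO arrays in blue and a marker shape for each array number. In every gene shown the 3 PMA arrays lie beyond the 3 DMSO arrays, as the rule for naming them required. SPP1 has 12.52, 12.44 and 11.76 with PMA, against 4.91, 4.92 and 4.47 with DMSO.

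Genes of protein kinase C, of other C1 proteins and of the substrates MARCKS and MARCKSL1 moved in both directions. Of these 18 genes, 4 were called higher and 4 lower, against 14.5% and 14.2% of all genes. RASGRP3, a RAS activator of B cells and macrophages that binds diacylglycerol, had 8.02, 7.04 and 8.22 with PMA, against 3.41, 3.24 and 3.67 with DMSO (4.32 ± 0.27, adjusted p = 1.38e-08). PRKCB, a conventional protein kinase C isoform of blood cells, rose by 1.06 ± 0.17, adjusted p = 0.000137, PRKCD, an isoform tied to myeloid differentiation, by 0.68 ± 0.16, adjusted p = 0.00423, and RASGRP4, of mast cells and myeloid cells, by 0.42 ± 0.14, adjusted p = 0.0368. The call for RASGRP4 was lost on leaving out any 1 of the 6 U937 arrays (adjusted p 0.0524 to 0.134), both arrays numbered 2 (adjusted p = 0.277) or both numbered 3 (adjusted p = 0.0843). The call for PRKCD was lost on the values as deposited (0.44, adjusted p = 0.188) and without both arrays numbered 3 (0.55, adjusted p = 0.0514). PRKCA had a change of 0.26 ± 0.23 and was not called. MARCKS, a substrate that protein kinase C moves off the membrane, fell by 1.61 ± 0.17, with 7.19, 7.52 and 7.22 with PMA, against 8.72, 8.93 and 9.11 with DMSO. RASGRP2, PRKCQ and PRKCE fell by 1.22 ± 0.16, 1.20 ± 0.13 and 0.77 ± 0.15. The median change of the list was 0.20, near that of all genes, 0.09 without PMA 1 or without both arrays numbered 2 and 0.13 without DMSO 2, and below 0 on the values as deposited (-0.04).

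Feedback inhibitors of ERK and related MAP kinases were mostly higher on day 3. Of 14 genes, 11 were called higher and 0 lower, with a median change of 1.09 against 0.171 for all genes. DUSP6, a cytoplasmic phosphatase for ERK, had 11.08, 10.69 and 11.04 with PMA, against 8.78, 8.98 and 8.81 with DMSO (2.08 ± 0.13, adjusted p = 1.02e-08). DUSP1 and DUSP5, nuclear phosphatases of the same family, rose by 2.74 ± 0.23 and 1.74 ± 0.14. SPRY2 and SPRY1, which damp RAS activation below receptor kinases, rose by 2.42 ± 0.28 and 1.72 ± 0.23. The list averaged 8.12 ± 0.14 with PMA and 6.89 ± 0.03 with DMSO (SD, n = 3 arrays each).

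Of 28 AP-1, EGR and other immediate early genes, 19 were called higher and 0 lower, with a median change of 0.82. JUN had 9.69, 9.25 and 9.80 with PMA, against 6.75, 6.56 and 5.88 with DMSO (3.18 ± 0.23, adjusted p = 4.75e-08), and FOS had 9.20, 9.21 and 8.53 with PMA, against 6.55, 6.68 and 5.77 with DMSO (2.65 ± 0.32, adjusted p = 9.88e-06). EGR2, a zinc finger factor of macrophage differentiation in mice, rose by 3.91 ± 0.23 and EGR3 by 2.18 ± 0.22. IER3, an early response gene that affects survival, rose by 4.31 ± 0.30. EGR1 had 8.01, 8.13 and 7.77 with PMA, against 7.75, 7.23 and 7.05 with DMSO, a change of 0.63 ± 0.24, adjusted p = 0.06, which passed with the array number as a block (adjusted p = 0.033).

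The macrophage surface was represented by 26 measured markers, of which 17 were called higher and 1 lower, with a median change of 1.54. ITGAX, the chain of CD11c found on macrophages and dendritic cells, had 10.25, 10.23 and 11.02 with PMA, against 5.59, 5.10 and 5.55 with DMSO (5.09 ± 0.26, adjusted p = 1.25e-09). ITGAM, the chain of CD11b in the complement receptor of phagocytes, had 7.59, 8.12 and 9.14 with PMA, against 5.15, 5.09 and 5.29 with DMSO (3.11 ± 0.36, adjusted p = 6.92e-06). The DMSO arrays of ITGAX and ITGAM all lay below the PMA arrays. CD163, the scavenger receptor for haptoglobin and haemoglobin, rose by 3.57 ± 0.39, the chemokine receptor CCR1 by 3.55 ± 0.24, and ADGRE1, an adhesion G protein-coupled receptor that marks macrophages in mice, by 3.07 ± 0.18. CD14, the co-receptor for lipopolysaccharide, had 7.32, 7.23 and 6.63 with PMA, against 5.32, 4.99 and 5.76 with DMSO (1.70 ± 0.24, adjusted p = 5.64e-05). The lower gene was CCR2, the receptor of classical monocytes for CCL2, which fell by 1.02 ± 0.35 (adjusted p = 0.0403), a call lost without PMA 2 (adjusted p = 0.141), PMA 3 (adjusted p = 0.0668), DMSO 1 (adjusted p = 0.141) or DMSO 2 (adjusted p = 0.0944), and without both arrays numbered 2 (adjusted p = 0.238) or both numbered 3 (adjusted p = 0.06). CD4 had a change of 0.19 ± 0.17 and was not called, and CD33 one of -0.41 ± 0.21, adjusted p = 0.147, which passed with the array number as a block (adjusted p = 0.0462).

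Genes of lipid handling and scavenging included SPP1 and FABP4, and 17 of 24 were called higher and 0 lower (median 1.20). OLR1, a receptor for oxidised low density lipoprotein, had 6.91, 5.50 and 6.25 with PMA, against 3.42, 3.41 and 3.53 with DMSO (2.77 ± 0.31, adjusted p = 5.54e-06). The chitinase-like CHI3L1 and the chitinase CHIT1, both secreted by mature macrophages, rose by 3.33 ± 0.26 and 2.35 ± 0.34. In the lysosome, 19 of 27 genes were called higher and 0 lower (median 0.84). CTSB, the cysteine protease cathepsin B, had 11.96, 11.97 and 12.05 with PMA, against 9.91, 10.11 and 9.52 with DMSO (2.14 ± 0.17, adjusted p = 1.35e-07). PSAP, the precursor of the saposins that help to degrade sphingolipids, rose by 1.80 ± 0.17. ATP6V0D2 and ATP6V0D1, alternative subunits of the proton pump, rose by 3.38 ± 0.46 and 1.92 ± 0.21, and MITF, a relative of the lysosomal regulator TFEB, by 1.73 ± 0.17. The lysosome list averaged 9.36 ± 0.10 with PMA and 8.39 ± 0.21 with DMSO (SD, n = 3 arrays each).

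The phagocyte oxidase, which makes superoxide, was represented by 6 genes, of which 3 were called higher. CYBB, the catalytic subunit gp91phox, had 7.96, 7.89 and 8.20 with PMA, against 5.33, 5.38 and 5.17 with DMSO (2.72 ± 0.27, adjusted p = 1.59e-06). RAC2, the small GTPase of the active complex, rose by 1.48 ± 0.20, and CYBA, the partner of CYBB in the membrane, by 0.57 ± 0.16, adjusted p = 0.0128, a call that was lost as deposited (0.33, adjusted p = 0.263) and without PMA 2 (0.50, adjusted p = 0.0566) or both arrays numbered 2 (0.54, adjusted p = 0.0826), and with the median of its probe sets (0.39, adjusted p = 0.532). Antigen presentation on MHC class II had 3 of 10 genes higher and 1 lower, against 14.5% and 14.2% of all genes. The higher ones were IFI30, a thiol reductase of the endosome (1.36 ± 0.28), and the peptide exchange factors HLA-DMA (1.25 ± 0.19) and HLA-DMB (1.02 ± 0.20). The lower gene was RFX5, a promoter-binding subunit of the class II enhanceosome (-0.70 ± 0.18, adjusted p = 0.00819), whose call was lost without both arrays numbered 2 (-0.56, adjusted p = 0.112).

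Genes of the extracellular matrix proteases and their inhibitors were among the largest increases. Of 23 measured, 16 were called higher and 0 lower, with a median change of 1.69. MMP1, the interstitial collagenase, had 12.67, 12.70 and 12.17 with PMA, against 7.23, 7.74 and 4.03 with DMSO (6.18 ± 0.66, adjusted p = 3.23e-06), where DMSO 3 lay well below the other DMSO arrays. MMP7, or matrilysin, had 9.82, 7.62 and 9.24 with PMA, against 2.80, 2.67 and 2.91 with DMSO (6.10 ± 0.42, adjusted p = 3.84e-08). MMP9, the gelatinase of macrophages and neutrophils, had 10.77, 10.60 and 10.23 with PMA, against 5.88, 6.02 and 5.67 with DMSO (4.68 ± 0.20, adjusted p = 2.71e-10). In all 3 genes the lowest PMA array lay above the highest DMSO array. MMP8, the neutrophil collagenase, rose by 3.74 ± 0.50, and the protease inhibitor alpha-2-macroglobulin, A2M, by 4.20 ± 0.28. PLAUR, the receptor of the urokinase protease, had 11.77, 11.86 and 11.67 with PMA, against 8.47, 8.68 and 7.98 with DMSO (3.38 ± 0.18, adjusted p = 3.26e-09). The list averaged 8.44 ± 0.38 with PMA and 6.16 ± 0.16 with DMSO (SD, n = 3 arrays each).

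AP-1 binds the letters TGANTCA, and the 300 bases around gene starts (250 before, 50 after) were read from RefSeq (GRCh38.p14) to see where they occur. The 3 promoters below are shown because their genes rose strongly and hold the letters, which are in capitals. Counted from the gene start, they begin at -175 and -48 in EMP1, at -67 in MMP7 and at -186 in PLAUR. The EMP1 window is chr12:13196476-13196775, plus strand, that of MMP7 chr11:102530698-102530997, minus strand, and that of PLAUR chr19:43670120-43670419, minus strand, each printed 5′ to 3′ along the gene.
EMP1: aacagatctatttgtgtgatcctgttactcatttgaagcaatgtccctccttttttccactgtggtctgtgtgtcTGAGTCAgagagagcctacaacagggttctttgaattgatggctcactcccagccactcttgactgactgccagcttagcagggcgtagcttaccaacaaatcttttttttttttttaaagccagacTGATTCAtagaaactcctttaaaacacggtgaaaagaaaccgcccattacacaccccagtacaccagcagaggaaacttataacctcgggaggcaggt
MMP7: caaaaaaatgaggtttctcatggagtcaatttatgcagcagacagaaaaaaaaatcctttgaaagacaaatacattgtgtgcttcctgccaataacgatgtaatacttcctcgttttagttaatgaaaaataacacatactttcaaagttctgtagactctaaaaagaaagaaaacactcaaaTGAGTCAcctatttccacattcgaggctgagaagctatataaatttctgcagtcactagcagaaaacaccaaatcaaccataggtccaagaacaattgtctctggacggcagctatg
PLAUR: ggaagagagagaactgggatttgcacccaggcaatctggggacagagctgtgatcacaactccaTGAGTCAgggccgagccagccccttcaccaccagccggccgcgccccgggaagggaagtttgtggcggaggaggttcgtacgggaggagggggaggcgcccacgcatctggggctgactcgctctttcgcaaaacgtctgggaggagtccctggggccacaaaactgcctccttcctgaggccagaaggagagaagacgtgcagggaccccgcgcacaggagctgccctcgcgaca
Of the 15 largest increases, 11 had a promoter in the table and 5 of these (45.5%) held TGANTCA on either strand, namely CCL7, EMP1, MMP7, TDO2 and TM4SF19. Of the 15 largest decreases, 11 had a promoter and 0 held it. In the matrix protease list 5 of 13 promoters (38.5%) held it, those of MMP10, MMP7, PLAUR, SERPINB2 and SERPINB8. It was held by 730 of the 12952 promoters of tested genes that were found (5.64%) and by 7.71% of all 35116 promoters in the table. Among all genes called higher the share was 7.01%, and among all called lower 3.02%. A match describes the letters in this window and is not a measured binding site.

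Cytokines and chemokines were higher in 20 of 32 genes and lower in 1, with a median change of 1.05. IL1B, the inflammatory interleukin made by activated monocytes, had 11.78, 10.80 and 10.81 with PMA, against 7.08, 6.78 and 6.91 with DMSO (4.21 ± 0.28, adjusted p = 2.45e-08). IL1RN, the receptor antagonist of the same family, rose by 3.45 ± 0.27. CXCL8, the neutrophil chemoattractant interleukin 8, had 11.32, 10.74 and 9.04 with PMA, against 7.57, 7.62 and 6.33 with DMSO (3.19 ± 0.61, adjusted p = 0.000734). PMA and DMSO arrays did not overlap for these 3 genes. CCL20, which attracts cells with the receptor CCR6, and LIF, a cytokine that signals through gp130, rose by 3.28 ± 0.59 and 3.23 ± 0.26. The lower gene was IL12A, the p35 chain of interleukin 12 (-1.30 ± 0.18, adjusted p = 5.35e-05). Of 21 targets and regulators of NF-kappaB, the factor downstream of many inflammatory receptors, 13 were called higher and 0 lower (median 1.02). The adaptor TRAF1 rose by 2.62 ± 0.21, the inhibitory deubiquitinase TNFAIP3 by 2.46 ± 0.17, the maturation marker CD83 by 1.66 ± 0.18 and the precursor of the p52 subunit, NFKB2, by 1.44 ± 0.17.

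Of 27 interferon-stimulated genes, 12 were called higher and 2 lower, with a median of 0.53 that was 0.34 without DMSO 3 and 0.87 over the genes above the 30th percentile. IFI6, a mitochondrial protein, rose by 2.96 ± 0.18. OAS1 and OAS2, sensors of double-stranded RNA, rose by 2.30 ± 0.22 and 1.48 ± 0.26, and IRF9, the DNA-binding subunit of the ISGF3 complex, by 1.55 ± 0.16. The lower genes were the viral restriction factors MX2 (-0.67 ± 0.16) and IFITM1 (-1.06 ± 0.31). The call for IFITM1 was lost without PMA 3 (adjusted p = 0.0846) or DMSO 1 (adjusted p = 0.0976). In 10 of the 27 both U937 means lay below the 30th percentile.

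Integrins and adhesion proteins were called higher in 15 of 25 genes and lower in 1 (median 0.64, or 0.99 over the genes above the 30th percentile). ITGB7, the beta chain of mucosal homing integrins, had 10.33, 9.70 and 10.26 with PMA, against 5.69, 5.49 and 5.63 with DMSO (4.49 ± 0.20, adjusted p = 3.29e-10). ITGB5, a partner of the alpha V chain in vitronectin receptors, rose by 3.08 ± 0.20, PECAM1, the contact protein of leukocytes and endothelium, by 2.63 ± 0.22, and the laminin receptor chains ITGA3 and ITGA6 by 2.60 ± 0.24 and 2.05 ± 0.43. ICAM1, the ligand of leukocyte integrins, rose by 1.83 ± 0.18. CD44, a hyaluronan receptor, had 8.83, 8.92 and 9.31 with PMA, against 7.45, 7.50 and 7.93 with DMSO (1.40 ± 0.24, adjusted p = 0.000264). ITGA4, which pairs with ITGB7 or ITGB1 in lymphocyte and monocyte homing, had the opposite direction, with 7.55, 7.73 and 7.50 with PMA, against 9.56, 9.56 and 9.82 with DMSO (-2.05 ± 0.20, adjusted p = 1.22e-06). Of 24 genes of the actin cytoskeleton and cell spreading, 9 were called higher and 0 lower, with a median of 0.30, little above that of all genes. The myosin MYO1E rose by 3.55 ± 0.23, the intermediate filament protein vimentin, VIM, by 2.63 ± 0.42, lamin A/C, LMNA, by 1.88 ± 0.24, and talin, TLN1, and filamin, FLNA, which tie integrins to actin, by 1.17 ± 0.24 and 1.07 ± 0.22.

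**Figure D2:**
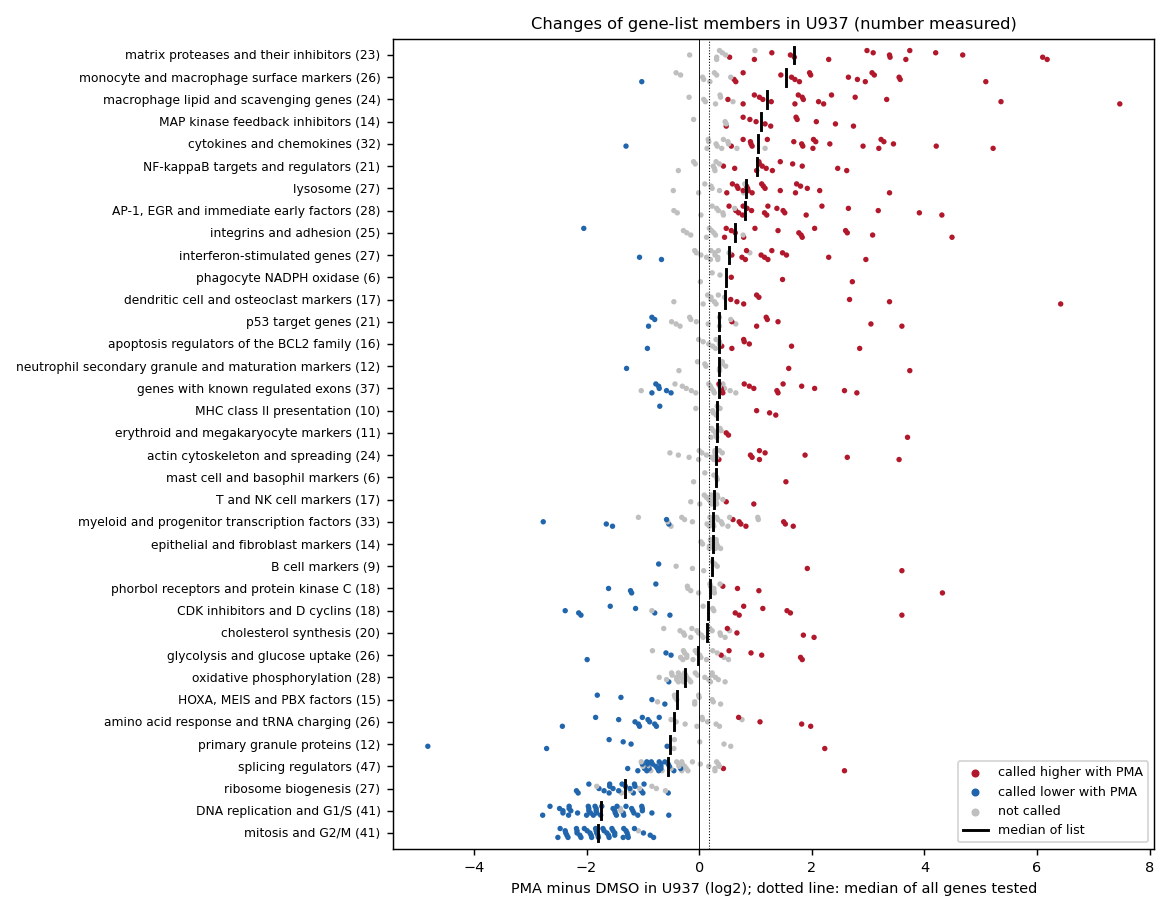
Log2 change (PMA minus DMSO, horizontal axis) of every measured gene of each list, coloured by whether it was called higher, lower or not called, with the median of each list marked. The replication list has a median of -1.75 and the mitosis list one of -1.79, and the matrix protease list has one of 1.69, against 0.171 for all genes.

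Of 41 genes of DNA replication and the G1/S transition, 39 were called lower and 0 higher, and of 41 genes of mitosis and G2/M, 40 were called lower and 0 higher, with medians of -1.75 and -1.79. GINS2, a subunit of the replicative helicase, had 5.84, 5.82 and 4.96 with PMA, against 8.37, 8.65 and 7.94 with DMSO (-2.78 ± 0.30, adjusted p = 3.79e-06). POLE2, a subunit of DNA polymerase epsilon, fell by 2.65 ± 0.30, CDC7, the kinase that fires origins, by 2.48 ± 0.21, the primase subunit PRIM1 by 2.42 ± 0.21, and CDC6, which loads the MCM helicase, by 2.42 ± 0.20. The replication genes not called were PCNA and FEN1, with changes of -1.39 ± 0.73, adjusted p = 0.156 and -1.40 ± 0.60, adjusted p = 0.0886, and both passed with the array number as a block (adjusted p = 2.62e-06 and 1.47e-06). TTK, a kinase of the spindle checkpoint, had 5.13, 5.62 and 4.71 with PMA, against 7.83, 7.77 and 7.37 with DMSO (-2.51 ± 0.36, adjusted p = 6.44e-05). PLK4, which starts centriole copying, fell by 2.47 ± 0.29, the spindle motor KIF11 by 2.38 ± 0.24 and the kinetochore protein NDC80 by 2.37 ± 0.62. The mitosis gene not called was PTTG1, securin (-1.08 ± 0.66, adjusted p = 0.218), which passed with the block (adjusted p = 5.45e-05). MAD2L1, of the same checkpoint as TTK, fell by 2.35 ± 0.75, a call lost without PMA 3 (-1.85, adjusted p = 0.103), DMSO 1 (-2.03, adjusted p = 0.108) or DMSO 2 (-2.11, adjusted p = 0.0994), or without both arrays numbered 2 (-2.29, adjusted p = 0.127).

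The level in PMA 2 stayed nearest to that of the DMSO arrays in both lists. The replication list averaged 7.06, 7.44 and 6.88 with PMA, against 8.88, 9.01 and 8.60 with DMSO, and the mitosis list 6.88, 7.46 and 6.61 with PMA, against 8.81, 8.89 and 8.45 with DMSO. The groups did not overlap in either list.

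**Figure D3:**
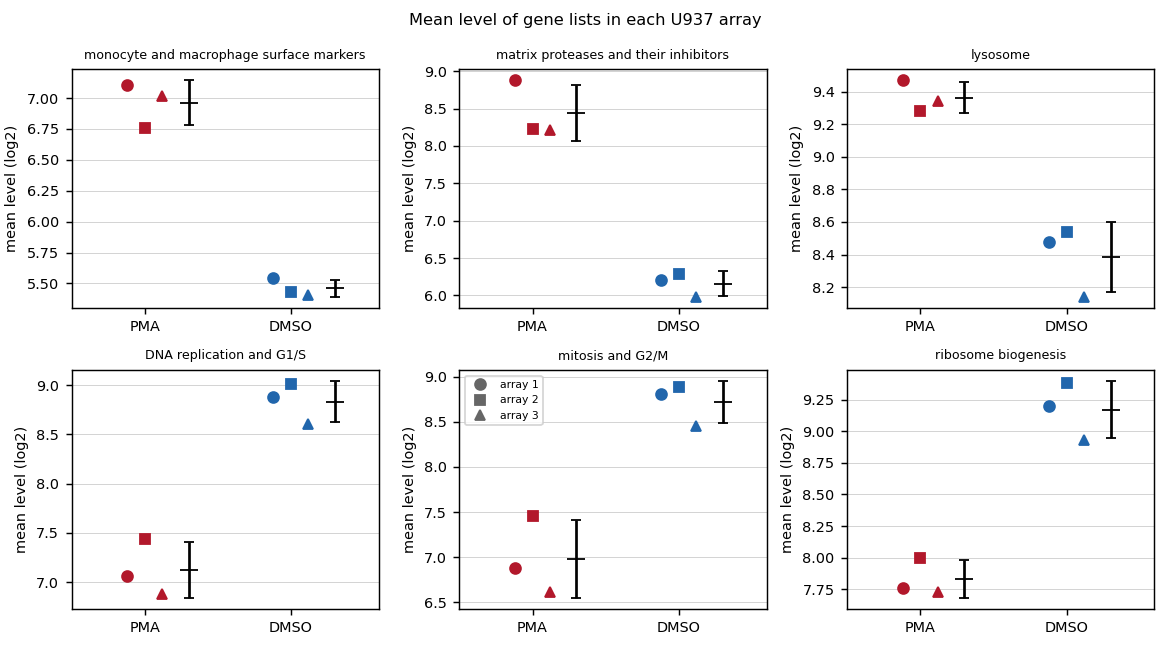
Mean level in log2 units of 6 gene lists in each U937 array, with PMA in red left of DMSO in blue, a marker shape for each array number and bars for the mean ± SD of 3 arrays. Surface markers, matrix proteases and lysosome genes are higher in all 3 PMA arrays, and replication, mitosis and ribosome biogenesis genes are lower in all 3.

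Promoters of these genes were read for the E2F letters GCGGGAA and for TTTGAA, the cell cycle homology region bound by the complex that times mitotic genes. Those of CDC7 and KIF11 are shown because both genes fell strongly and each holds the letters of its class, in capitals (in KIF11 on the other strand). In CDC7 (chr1:91500601-91500900, plus strand) they begin at -102 and -9 from the start, and in KIF11 (chr10:92592880-92593179, plus strand) at -28, in GRCh38.p14 and 5′ to 3′ along the gene.
CDC7: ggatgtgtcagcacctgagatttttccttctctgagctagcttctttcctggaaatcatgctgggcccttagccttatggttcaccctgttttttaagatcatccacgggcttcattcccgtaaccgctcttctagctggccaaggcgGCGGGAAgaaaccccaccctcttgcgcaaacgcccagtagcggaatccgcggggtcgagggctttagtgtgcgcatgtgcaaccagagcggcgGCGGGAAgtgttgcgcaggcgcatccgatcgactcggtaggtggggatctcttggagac
KIF11: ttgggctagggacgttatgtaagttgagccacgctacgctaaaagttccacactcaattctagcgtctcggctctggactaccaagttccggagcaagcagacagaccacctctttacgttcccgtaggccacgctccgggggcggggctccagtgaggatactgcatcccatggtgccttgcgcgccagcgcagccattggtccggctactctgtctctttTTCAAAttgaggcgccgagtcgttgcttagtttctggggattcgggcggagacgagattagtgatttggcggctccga
GCGGGAA stood in 17 of 36 replication promoters (47.2%) and in 3 of 35 mitosis promoters (8.57%), against 9.02% of the promoters of all genes tested and 6.55% of all promoters in the table. TTTGAA stood in 23 of 35 mitosis promoters (65.7%) and in 1 of 36 replication promoters (2.78%), against 11.5% and 15.2%. The E2F letters were in 14.3% of the promoters of genes called lower and in 6.52% of those called higher. A TTTGAA match can share letters with a TGANTCA match that follows it. TTTGAA was also in 5 of the 11 promoters of the largest increases (45.5%).

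The regulators of the cell cycle moved in both directions, with 7 of 18 CDK inhibitors, D cyclins and their partners higher and 7 lower. CDKN1A, the inhibitor p21, had 10.29, 10.31 and 9.77 with PMA, against 6.60, 6.64 and 6.32 with DMSO (3.60 ± 0.17, adjusted p = 6.88e-10). CCND2 and CDK6, a D cyclin and its kinase in progenitors, fell by 2.38 ± 0.31 and 2.14 ± 0.24. The antiproliferative BTG2 rose by 1.62 ± 0.22, and CDKN3, a phosphatase whose level follows the cycle, fell by 2.10 ± 0.52. The median of this list was 0.15 after centring, 0.09 without PMA 2, 0.04 without DMSO 1 and -0.09 as deposited. Of 21 genes that p53 is known to activate, 7 were called higher and 3 lower, against 14.5% and 14.2% of all genes. Their median was 0.36, or 0.22 to 0.23 without PMA 3, DMSO 2 or DMSO 3. Besides CDKN1A the higher ones included GDF15, a stress cytokine (3.05 ± 0.38), SESN1, a leucine sensor that restrains mTORC1 (1.40 ± 0.22), ZMAT3, an RNA-binding protein (1.21 ± 0.17) and TNFRSF10B, the death receptor for TRAIL (1.19 ± 0.15). The lower ones were DDB2 (-0.79 ± 0.23), FAS (-0.84 ± 0.20) and AEN (-0.90 ± 0.14), of which DDB2 was lost without PMA 3 (adjusted p = 0.0744), DMSO 1 (adjusted p = 0.0907), DMSO 2 (adjusted p = 0.0798) or both arrays numbered 2 (adjusted p = 0.0714).

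Of 27 genes of ribosome assembly, 20 were called lower and 0 higher (median -1.31). POLR1E, a subunit of RNA polymerase I, had 5.98, 6.59 and 6.61 with PMA, against 8.68, 8.74 and 8.29 with DMSO (-2.18 ± 0.19, adjusted p = 4.65e-07). The nucleolar protein NOLC1 fell by 2.15 ± 0.19, UTP20 of the small subunit processome by 1.96 ± 0.25, and the polymerase subunit POLR1B by 1.78 ± 0.24. NHP2, of the pseudouridylation complexes, had a change of -1.82 ± 0.74, adjusted p = 0.0753 and passed with the array number as a block (adjusted p = 1.47e-07). MYC, whose product drives ribosome and cell cycle genes, had 6.38, 6.66 and 5.68 with PMA, against 8.03, 8.14 and 7.50 with DMSO (-1.65 ± 0.31, adjusted p = 0.000656, and -2.70 with the median of its probe sets).

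Amino acid supply and tRNA charging had 12 of 26 genes lower and 4 higher, against 14.2% and 14.5% of all genes (median -0.45). PSAT1 and PHGDH, enzymes of serine synthesis, fell by 2.43 ± 0.29 and 1.84 ± 0.19, and LARS1, the leucyl-tRNA synthetase, by 1.43 ± 0.20. The 4 higher genes were the cystine importer SLC7A11 (1.98 ± 0.55), the stress factors ATF5 (1.82 ± 0.19) and DDIT3 (1.08 ± 0.32), and the tryptophanyl-tRNA synthetase WARS1 (0.70 ± 0.20). The call for SLC7A11 was lost without PMA 1 (1.72, adjusted p = 0.061) or both arrays numbered 2 (1.84, adjusted p = 0.0991). That for DDIT3 was lost without PMA 1 (adjusted p = 0.0687), PMA 2 (adjusted p = 0.0504), DMSO 2 (adjusted p = 0.0569) or DMSO 3 (adjusted p = 0.0748), without both arrays numbered 2 (adjusted p = 0.112) and as deposited (adjusted p = 0.124). That for WARS1 was lost without PMA 3 (0.43, adjusted p = 0.0594), without both arrays numbered 3 (adjusted p = 0.127) and as deposited (adjusted p = 0.314).

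Of 26 genes of glycolysis and glucose uptake 6 were called higher and 3 lower, against 14.5% and 14.2% of all genes. Their median was -0.02, which lay between -0.06 and 0.02 on leaving out 1 array and was 0.05 when arrays were scaled to a common spread. SLC2A3, the neuronal and leukocyte glucose carrier, rose by 1.83 ± 0.25, the myeloid hexokinase HK3 by 1.80 ± 0.21 and PFKFB4, which sets fructose bisphosphate levels, by 1.11 ± 0.22. The fructose carrier SLC2A5 fell by 1.99 ± 0.23, the lactate dehydrogenase subunit LDHA by 0.50 ± 0.11 and the aldolase ALDOC by 0.59 ± 0.15, which was not called without DMSO 1 (adjusted p = 0.0552) or both arrays numbered 2 (adjusted p = 0.0758). In cholesterol synthesis 4 of 20 were called higher and 0 lower, with a median of 0.13 that was -0.11 as deposited, -0.02 without both arrays numbered 3, 0.27 without PMA 2, 0.31 without DMSO 1, and 0.07, 0.04 and 0.02 without PMA 1, PMA 3 and DMSO 3. These were SQLE (2.04 ± 0.28), MSMO1 (1.85 ± 0.33), CYP51A1 (0.67 ± 0.22) and MVD (0.50 ± 0.14), of which CYP51A1 was lost as deposited (0.43, adjusted p = 0.443), without PMA 1 (0.61, adjusted p = 0.101), without PMA 3 (0.43, adjusted p = 0.133), without DMSO 2 (0.73, adjusted p = 0.0515), without DMSO 3 (0.50, adjusted p = 0.111) and without both arrays numbered 3 (0.26, adjusted p = 0.343), and was 1.03 without both arrays numbered 2. MVD was lost without DMSO 3 (adjusted p = 0.0502), without both arrays numbered 3 (adjusted p = 0.0956) and as deposited (adjusted p = 0.491). MSMO1 passed without both arrays numbered 3, at a change of 1.20. EBP and PMVK, of the same pathway, had changes of 0.54 ± 0.39 and -0.63 ± 0.52 and passed with the block (adjusted p = 0.0332 and 0.00295).

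Of 28 subunits of oxidative phosphorylation 1 was called, NDUFV1 of complex I (-0.54 ± 0.17, adjusted p = 0.0265), and the median was -0.25, which was 0.08 without PMA 3, 0.02 without DMSO 2, -0.03 without DMSO 1 or without both arrays numbered 2, -0.46 without PMA 1, -0.60 without DMSO 3 and -0.49 as deposited. That call was lost without any of PMA 1, PMA 3, DMSO 1 or DMSO 2 (adjusted p 0.0586 to 0.105), and without both arrays numbered 2 (-0.57, adjusted p = 0.0851). The list averaged 10.08, 9.83 and 9.12 with PMA, against 10.19, 10.31 and 9.03 with DMSO, so that both arrays numbered 3 lay lowest. With the block, NDUFV2, NDUFA9, ATP5PB and COX6C also passed (adjusted p = 0.00212, 0.00572, 0.0172 and 0.0257), with changes of -0.71 ± 0.74, -0.58 ± 0.48, -0.49 ± 0.61 and -0.48 ± 1.06.

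Of 33 transcription factors of myeloid cells and their progenitors, 7 were called higher and 5 lower, against 14.5% and 14.2% of all genes, with a median of 0.25. CEBPB, the factor of macrophage inflammatory genes, had 9.08, 9.42 and 9.31 with PMA, against 7.49, 7.65 and 7.67 with DMSO (1.67 ± 0.17, adjusted p = 1.62e-06). PRDM1, or BLIMP1, rose by 1.53 ± 0.21. SPI1, the factor PU.1 required for macrophages, rose by 0.83 ± 0.19, adjusted p = 0.00345, a call that was lost as deposited (0.59, adjusted p = 0.0684). The 5 lower factors were MYB, MYC, the repressor GFI1 of granulocyte progenitors (-1.54 ± 0.22), RUNX1 (-0.58 ± 0.21) and ETS1 (-0.54 ± 0.15). The call for RUNX1 was lost without PMA 1, PMA 2, PMA 3 or DMSO 2 (adjusted p = 0.147, 0.0809, 0.0669 and 0.0555), without DMSO 3 (-0.36, adjusted p = 0.178), and without both arrays numbered 2 (adjusted p = 0.0891) or both numbered 3 (adjusted p = 0.187). That for ETS1 was lost without PMA 3, DMSO 1 or DMSO 2 (adjusted p = 0.0568, 0.0518 and 0.0535) or both arrays numbered 2 (adjusted p = 0.0939). Of 15 HOXA, MEIS and PBX genes, which hold the self-renewal programme of many leukaemias, 0 were called higher and 4 lower (median -0.40, or -0.25 without PMA 1, -0.23 without both arrays numbered 3 and -0.18 with the median of probe sets). MEIS1, the cofactor of HOXA9, had 7.75, 7.90 and 8.07 with PMA, against 9.77, 9.73 and 9.66 with DMSO (-1.81 ± 0.15, adjusted p = 2.89e-07). HOXA11, MEIS2 and HOXA10 fell by 1.39 ± 0.22, 0.84 ± 0.13 and 0.61 ± 0.15, the last of which was not called without both arrays numbered 3 (-0.53, adjusted p = 0.0549) or with the median of its probe sets (-0.12, adjusted p = 0.727). HOXA9 had a change of -0.74 ± 0.29, adjusted p = 0.0656 and passed with the block (adjusted p = 0.000252).

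Primary granule proteins, which promonocytes make and monocytes cease to make, were listed together with serpins of myeloid cells. Of these 12 genes, 6 were called lower and 1 higher (median -0.51, or -0.30 without PMA 3). Besides CTSG and ELANE, the lower genes were the protease PRTN3 (-1.60 ± 0.32), its relative AZU1 (-1.21 ± 0.20), the elastase inhibitor SERPINB1 (-1.35 ± 0.31) and SERPINB10 (-0.57 ± 0.20, adjusted p = 0.0414). SERPINB10 lay below 5.17 in both U937 groups (mean 3.72 with PMA and 4.29 with DMSO). It was not called without both arrays numbered 2 (-0.63, adjusted p = 0.12), both numbered 3 (-0.32, adjusted p = 0.238) or any 1 array other than PMA 1 (adjusted p 0.061 to 0.179). The higher one was BPI, which binds bacterial lipopolysaccharide (2.23 ± 0.54, adjusted p = 0.00518). MPO had a change of 0.44 ± 0.18, adjusted p = 0.0726 and passed with the block (adjusted p = 0.0396). Of 16 BCL2 relatives 7 were called higher and 1 lower (median 0.36). BCL2A1 and MCL1, which block apoptosis, rose by 2.85 ± 0.67 and 0.89 ± 0.14, and BMF, which promotes it, by 1.64 ± 0.20, while BCL2 itself fell by 0.92 ± 0.16.

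Markers of other cell types were measured to see whether the cultures held or gained them. Of 17 T and NK cell markers 2 were called higher and 0 lower, against 14.5% and 14.2% of all genes. The 2 were GNLY (0.97 ± 0.25) and CD8A (0.48 ± 0.13). Summed linear signal of this list was 2643 to 3581 with PMA and 2478 to 2946 with DMSO. Both calls were lost as deposited (adjusted p = 0.0816 and 0.378) and without both arrays numbered 2 (adjusted p = 0.0684 and 0.151), and that of CD8A also with the median of its probe sets (adjusted p = 0.348). Both U937 means were below the 30th percentile for 9 of the 17. Of 9 B cell markers, FCRLA (3.60 ± 0.31) and CD22 (1.92 ± 0.12) were higher and PAX5 (-0.72 ± 0.15) lower, with summed linear signal 531 to 810 with PMA and 391 to 424 with DMSO. The chemokine PPBP of platelets rose by 3.70 ± 0.64, and PF4 and ALAS2 by 0.52 ± 0.17 and 0.48 ± 0.14, among 11 erythroid and megakaryocyte markers, with summed linear signal 656 to 1217 with PMA and 535 to 555 with DMSO. PF4 and ALAS2 were not called as deposited (adjusted p = 0.421 and 0.412), without both arrays numbered 2 (adjusted p = 0.255 and 0.0886), without PMA 1 (adjusted p = 0.063 and 0.0634), without PMA 2 (adjusted p = 0.0903 and 0.0573) or without DMSO 1 (adjusted p = 0.0659 and 0.0651), and PF4 was not called without DMSO 2 (adjusted p = 0.133). None of 14 epithelial and fibroblast markers was called by limma in this comparison. HDC was higher (1.54 ± 0.21) among 6 mast cell and basophil markers, and MMP8 and FPR1 (1.59 ± 0.19) higher and CXCR2 (-1.29 ± 0.21) lower among 12 markers of neutrophils. Of 17 markers of dendritic cells and osteoclasts, 8 were called higher, led by DCSTAMP, ATP6V0D2 and the lectin CD209 (2.67 ± 0.38), with summed linear signal 2471 to 3122 with PMA and 762 to 921 with DMSO. The part of any other cell type in the results was not tested.

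The same treatment in HL60 and THP-1 shows where U937 differed. limma called 4848 genes in HL60 (29.8%) and 5277 in THP-1 (32.5%). Of the genes called lower in U937, 1186 were called lower in all 3 lines, which is 51.19% of those of U937, 48.83% of HL60 and 46.58% of THP-1. Of those called higher, 840 were called in all 3 lines, 35.74% of U937, 34.73% of HL60 and 30.76% of THP-1. Absence of a call in a line does not show a difference, so the U937 change minus the mean change of HL60 and THP-1 was tested. It was called for 1436 genes (8.83%), 683 in which U937 stood higher (4.2%) and 753 in which it stood lower (4.63%). With the array number as a block 2705 genes were called, and on the values as deposited 925. Of the 1436 genes, 690 were not themselves called in U937.

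Of the 41 replication genes, 0 stood higher and 0 lower in U937 than in the other lines by this test, against 4.2% and 4.63% of all genes, and the list medians were -1.75 in U937, -2.20 in HL60 and -1.25 in THP-1. Of the 41 mitosis genes 9 stood higher and 0 lower in U937 than the mean of the other lines, against the same 4.2% and 4.63%. The list medians were -1.79 in U937, -1.99 in THP-1 and -3.02 in HL60, so U937 lay near THP-1 and HL60 fell furthest. Among 32 cytokines 6 stood higher and 7 lower, and among 23 matrix proteases 5 and 4. The primary granule list had medians of -0.51 in U937, -2.32 in HL60 and -1.58 in THP-1.

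Among genes that stood higher in U937, S100A8, a calcium-binding alarmin of monocytes and neutrophils, had 10.47, 9.68 and 8.08 with PMA, against 7.84, 8.60 and 6.07 with DMSO. Its U937 groups overlapped, and its change of 1.91 ± 0.57, adjusted p = 0.0197 was not called without PMA 1 (1.38, adjusted p = 0.115), PMA 2 (1.77, adjusted p = 0.0646) or DMSO 3 (1.19, adjusted p = 0.0908). That call was also lost when limma was run on the 6 U937 arrays by themselves (adjusted p = 0.0856). S100A8 changed by -4.97 ± 0.57 in HL60 and -2.56 ± 0.57 in THP-1, and the difference was 5.67 ± 0.70, adjusted p = 6.06e-05. GPR34 rose by 5.93 ± 0.45 in U937, against 1.56 ± 0.45 in HL60 and 0.53 ± 0.45 in THP-1 (difference 4.89 ± 0.55, adjusted p = 2.48e-05). TM4SF1 rose by 5.37 ± 0.47 in U937, against 0.96 ± 0.47 in HL60 and 0.42 ± 0.47 in THP-1 (difference 4.68 ± 0.57, adjusted p = 4.97e-05). CCL7 rose by 5.22 ± 0.44 in U937, against 1.34 ± 0.44 in HL60 and 0.14 ± 0.44 in THP-1 (difference 4.48 ± 0.54, adjusted p = 4.79e-05). TDO2 rose by 6.51 ± 0.55 in U937, against 2.11 ± 0.55 in HL60 and 2.96 ± 0.55 in THP-1 (difference 3.97 ± 0.67, adjusted p = 0.000964). SERPINB10, a serpin of myeloid precursors, had a small change in U937 (-0.57 ± 0.20) and large ones elsewhere, -6.52 ± 0.20 in HL60 and -2.62 ± 0.20 in THP-1 (difference 3.99 ± 0.24, adjusted p = 5.54e-08).

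Of the 753 genes that stood lower in U937, 240 were called lower and 141 higher in U937 itself, and the 6 with the largest differences are described here. MSR1, the macrophage scavenger receptor for modified lipoprotein, had 2.89, 2.72 and 2.95 with PMA, against 2.71, 2.69 and 2.91 with DMSO, a change of 0.08 ± 0.24, adjusted p = 0.801, against 1.93 ± 0.24 in HL60 and 7.28 ± 0.24 in THP-1 (difference -4.52 ± 0.30, adjusted p = 1.1e-07). The tetraspanin CD9 had 7.20, 6.88 and 6.38 with PMA, against 6.54, 6.31 and 5.79 with DMSO, a change of 0.60 ± 0.37, adjusted p = 0.225 that passed with the block (adjusted p = 0.00929), against 6.79 ± 0.37 in HL60 and 4.94 ± 0.37 in THP-1 (difference -5.26 ± 0.46, adjusted p = 1.56e-06). ATP1B1, the beta subunit of the sodium pump, fell by 0.93 ± 0.19 in U937 and changed by 5.38 ± 0.19 in HL60 and 1.94 ± 0.19 in THP-1 (difference -4.59 ± 0.23, adjusted p = 1.06e-08). DDIT4L, an mTORC1 inhibitor, changed by 0.38 ± 0.18 in U937, against 3.52 ± 0.18 in HL60 and 5.63 ± 0.18 in THP-1 (difference -4.19 ± 0.21, adjusted p = 1.06e-08). GEM, a small GTPase that limits calcium channels, changed by 0.17 ± 0.18 in U937, against 4.03 ± 0.18 in HL60 and 4.29 ± 0.18 in THP-1 (difference -3.99 ± 0.22, adjusted p = 2.23e-08). TNFAIP8L3, a carrier of phosphoinositides, changed by 0.11 ± 0.24 in U937, against 4.76 ± 0.24 in HL60 and 3.29 ± 0.24 in THP-1 (difference -3.92 ± 0.29, adjusted p = 3.62e-07). MSR1, DDIT4L and GEM lay below 5.17 in both U937 groups. Their means were 2.85, 4.93 and 4.42 with PMA and 2.77, 4.55 and 4.25 with DMSO.

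In 27 genes the call in U937 was opposite to the calls in both other lines. Besides S100A8 and ATP1B1, the following were chosen after their values were seen. MYADM, a myeloid membrane protein, had 9.49, 9.48 and 9.82 with PMA, against 8.32, 8.26 and 8.48 with DMSO, and changed by -1.80 ± 0.20 in HL60 and -1.32 ± 0.20 in THP-1. STING1, the adaptor of cytosolic DNA sensing, had 9.38, 9.35 and 9.34 with PMA, against 8.89, 8.81 and 8.56 with DMSO, and changed by -0.92 ± 0.16 in HL60 and -0.48 ± 0.16 in THP-1. P2RX5, an ATP-gated channel, had 5.90, 6.20 and 6.38 with PMA, against 7.01, 7.02 and 7.06 with DMSO, and changed by 2.44 ± 0.15 in HL60 and 1.38 ± 0.15 in THP-1. ETS1, a transcription factor of lymphoid and other cells, had 7.85, 7.71 and 7.51 with PMA, against 8.29, 8.31 and 8.09 with DMSO, and changed by 0.99 ± 0.15 in HL60 and 2.66 ± 0.15 in THP-1. The PMA and DMSO arrays of U937 did not overlap for these 4 genes, although ETS1 lost its call without some arrays, as given above, and STING1 did so without both arrays numbered 2 (adjusted p = 0.0527) or both numbered 3 (adjusted p = 0.0686) and as deposited (adjusted p = 0.258).

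**Figure D4:**
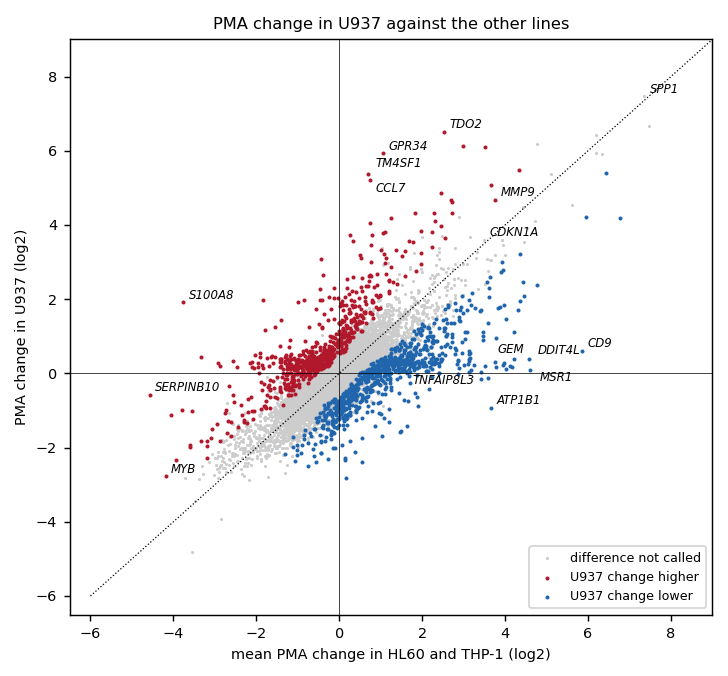
Log2 change (PMA minus DMSO) of each tested gene in U937 (vertical axis) against the mean change in HL60 and THP-1 (horizontal axis), with genes in red where the U937 change was called higher, in blue where it was called lower, and a dotted line of equal change. CD9, MSR1 and DDIT4L lie far right near a U937 change of 0, and GPR34, TM4SF1 and CCL7 lie high above the line.

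The series concerns exon usage, which was read as the change of a probe set against the rest of its gene. Over 175137 probe sets in 11978 genes, 1486 were called by both of the tests used, 913 higher and 573 lower in 835 genes. diffSplice by itself called 2308 (1.32%), 1247 that rose and 1061 that fell beyond their gene, in 1311 genes. The splicing index subtracts from each probe set the mean of its gene on the same array, and its test called 2158 (1.23%). diffSplice made many more false calls than the splicing index on data simulated with independent noise in each probe set and array. The real arrays deviate together by number, so the part of false calls in its own count is unknown. With the array number as a block diffSplice called 5119, and without both arrays numbered 2 it called 908. Leaving out PMA 1, DMSO 1 or DMSO 2 left 1500, 1342 and 1295 calls. Of the 1486, 1067 lay in genes that themselves changed at least 2-fold. The other 419, 259 higher and 160 lower in 307 genes, lay in genes whose own change was under 1 log2 unit. The exon of a probe set and its position were not used here.

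Of 47 regulators of splicing, 22 were called lower and 2 higher (median -0.55). HNRNPLL, known in T cells for the skipping of CD45 exons, had 6.65, 5.42 and 6.04 with PMA, against 3.42, 3.39 and 3.56 with DMSO (2.58 ± 0.33, adjusted p = 2.24e-05), with 0.52 ± 0.33 in HL60 and 0.56 ± 0.33 in THP-1 (difference 2.04 ± 0.41, adjusted p = 0.00387). The other higher gene was ESRP1, an epithelial splicing factor (0.43 ± 0.14), a call lost without PMA 1 (adjusted p = 0.07), PMA 2 (adjusted p = 0.0871), DMSO 1 (adjusted p = 0.127) or both arrays numbered 2 (adjusted p = 0.115), and as deposited (adjusted p = 0.571). MBNL3 and PTBP2, relatives of more widely made splicing factors, fell by 1.27 ± 0.20 and 1.09 ± 0.21. SRSF3, an SR protein that couples splicing to export, had a change of -1.03 ± 0.41, adjusted p = 0.0715 and passed with the block (adjusted p = 6.16e-05). Of 37 tested genes with exons known to be regulated, 6 (16.22%) had a diffSplice call and 4 (10.81%) one by both tests, against 10.95% and 6.971% of all genes tested. Those with calls by both were HNRNPLL with 5 probe sets, NUMB, RUNX1 and TCF3, and those with diffSplice calls alone were MBNL1 and SYK. HNRNPLL averaged 3.46 with DMSO, below 5.17, and its probe sets differed from the rest by -2.99 to 2.89, so these sizes are approximate. The gene level of NUMB rose by 1.82 ± 0.16. Neither PTPRC, which encodes CD45, nor CD44 had a called probe set in U937.

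The probe sets below were chosen among diffSplice calls as those that changed most against genes whose own change was under 1 log2 unit. Of the 12, 9 had 1 U937 group mean below the 30th percentile, that of DMSO in 5 of the 6 that rose (PZP, COL22A1, TIE1, AIF1 and WHRN) and that of PMA in 4 of the 6 that fell (LHX2, MYEF2, GALT and DOC2A), and the sizes of these differences are approximate. In the collagen gene COL22A1, probe set 3155639, 1 of 51 of its gene, had 9.54, 9.74 and 8.65 with PMA, against 5.50, 4.76 and 4.31 with DMSO, a difference of 3.80 log2 units against the rest of its gene (diffSplice adjusted p = 1.94e-23, splicing index adjusted p = 6.92e-05). In AIF1, an actin-binding protein of macrophages, probe set 2902449 had 6.29, 7.04 and 7.79 with PMA, against 4.74, 5.07 and 3.53 with DMSO, a difference of 2.79 log2 units against the rest of its gene (diffSplice adjusted p = 6.87e-10, splicing index adjusted p = 0.00264). The gene level of AIF1 changed by -0.05, so the other probe sets as a whole did not rise. In TIE1, an endothelial receptor kinase, probe set 2333092 had 5.97, 6.18 and 7.35 with PMA, against 1.73, 2.73 and 2.83 with DMSO, a difference of 3.41 log2 units against the rest of its gene (diffSplice adjusted p = 1.09e-08, splicing index adjusted p = 0.0359). In WHRN, a scaffold of hair cells, probe set 3222006 had 6.39, 7.35 and 7.98 with PMA, against 3.85, 2.34 and 5.30 with DMSO, a difference of 2.77 log2 units against the rest of its gene (diffSplice adjusted p = 7.43e-11, splicing index adjusted p = 0.0303). In every one of these the PMA arrays lay above the DMSO arrays.

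In PZP, probe set 3443487 had 9.09, 8.49 and 9.06 with PMA, against 4.02, 3.54 and 4.28 with DMSO, a difference of 3.86 log2 units against the rest of its gene (diffSplice adjusted p = 1.05e-11, splicing index adjusted p = 0.00238). PZP is a close relative of A2M, which rose by 4.20 ± 0.28, and where a probe set matches both genes their signals cannot be told apart, so this value is uncertain. RPLP0P2 is a pseudogene copy of the ribosomal protein gene RPLP0, and its probe set 3333098 had 9.60, 7.55 and 10.04 with PMA, against 5.18, 6.17 and 4.98 with DMSO, a difference of 3.43 log2 units against the rest of its gene (diffSplice adjusted p = 9.34e-06, splicing index adjusted p = 0.00147). Whether this probe set also matches RPLP0 was not tested, so its value is uncertain too.

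Among probe sets that fell, 3009402 of the small heat shock protein HSPB1 had 6.61, 6.54 and 7.08 with PMA, against 8.59, 8.40 and 8.66 with DMSO, a difference of -2.39 log2 units against the rest of its gene (diffSplice adjusted p = 8.69e-08, splicing index adjusted p = 0.00564). Probe set 3188672 of the homeobox gene LHX2 had 3.98, 3.30 and 5.09 with PMA, against 7.65, 7.35 and 7.81 with DMSO, a difference of -2.92 log2 units against the rest of its gene (diffSplice adjusted p = 3.62e-07, splicing index adjusted p = 0.00811). Probe set 3622961 of MYEF2, a repressor of myelin genes in mice, had 4.44, 2.38 and 3.97 with PMA, against 5.50, 6.07 and 5.84 with DMSO, a difference of -2.71 log2 units against the rest of its gene (diffSplice adjusted p = 4.92e-06, splicing index adjusted p = 0.0247). The groups did not overlap in these 3.

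Probe set 3687371 of DOC2A, a calcium sensor of vesicle release, had 5.33, 2.88 and 4.99 with PMA, against 7.12, 7.09 and 6.65 with DMSO, a difference of -2.46 log2 units against the rest of its gene (diffSplice adjusted p = 4.09e-07, splicing index adjusted p = 0.0459), which was -1.52 (adjusted p = 0.0753) without both arrays numbered 2. Probe set 3844796, annotated to PRG2, had 4.84, 6.45 and 6.10 with PMA, against 8.48, 8.46 and 8.69 with DMSO, a difference of -2.80 log2 units against the rest of its gene (diffSplice adjusted p = 0.000662, splicing index adjusted p = 0.0411), which was -2.19 (adjusted p = 0.0863) without PMA 1. The symbol PRG2 covers 2 separate ranges of probe-set numbers, so the gene behind this one is not settled. Probe set 3167549 of GALT, an enzyme of galactose use, had 4.60, 4.54 and 1.88 with PMA, against 7.23, 7.03 and 4.86 with DMSO, a difference of -2.59 log2 units against the rest of its gene (diffSplice adjusted p = 0.000392, splicing index adjusted p = 0.367). In GALT each array numbered 3 lay lowest of its group, and the difference was -1.70 (adjusted p = 0.135) without PMA 3.

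**Figure D5:**
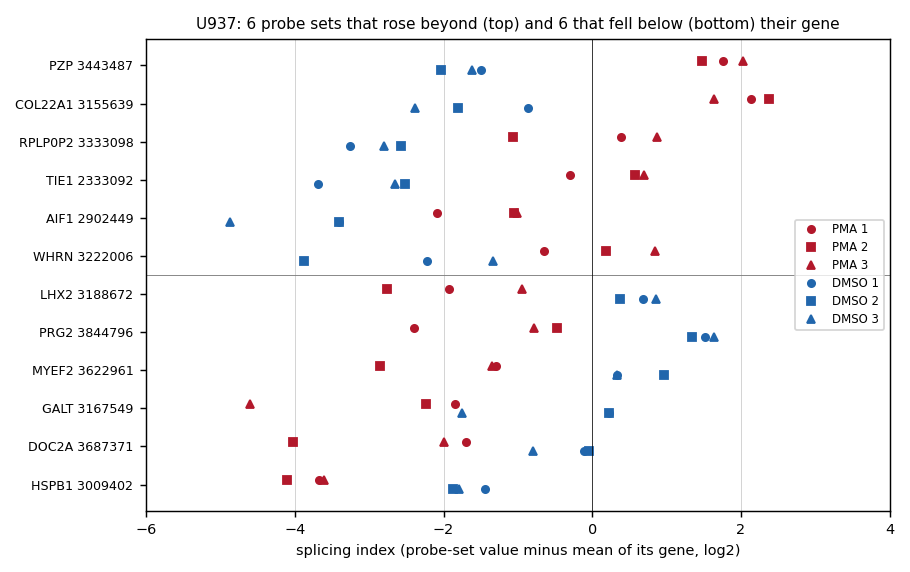
Splicing index (probe-set value minus the mean of its gene, log2 units) of the 12 named probe sets in each U937 array, with PMA arrays in red and DMSO arrays in blue. The 6 probe sets that rose lie higher in all 3 PMA arrays and the 6 that fell lie lower in all 3, as the rule for naming them required.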

How the data were processed

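Gene and exon levels were measured on 18 exon arrays, 6 of them of U937. The authors deposited log2 values per core probe set, made with Affymetrix Expression Console per the submitters' processing notes, with its version not stated. How background was corrected and arrays were normalized, and on which genome build, the sources used here do not state. For arrays, their number limits the precision, and no depth is given.

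Of 287329 probe sets, the platform's annotation gives 261273 exactly 1 gene symbol, 9155 several and 16901 none, and those with 1 symbol were used. Of 16941 symbols 14546 were current in RefSeq, 2276 were updated and 119 kept. Each array was centred on its median over all probe sets, since both U937 arrays numbered 2 are scaled differently, and a constant of 6.6 was added. Gene levels were means of at least 3 probe sets.

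A single limma fit (3.58.1, in R 4.3.3, with the data.table package, version 1.17.8) of 6 group means over 18 arrays, with 12 residual and 16.03 total degrees of freedom, gave the change in U937 and its difference from the mean of HL60 and THP-1. Changes are given ± SE, in log2 units, PMA minus DMSO, from 3 arrays a group, with two-sided p-values after Benjamini-Hochberg adjustment across the 16260 genes, called under 0.05. For exon usage, limma's diffSplice was run and, as an alternative, limma on the splicing index, for probe sets above the 30th percentile in genes with at least 5 of them. A call needed a difference of 1 log2 unit or more besides the same adjusted p. diffSplice treats the probe sets of a gene as independent. Data simulated with independent noise met this assumption, and diffSplice still made many more false calls on them than the splicing index. The reason was not tested, and calls by both are given. That simulation held no shared deviation of same-numbered arrays, and does not measure the false calls here.

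Same-numbered arrays tended to deviate together: in U937, their deviations from the group means correlated at 0.322, 0.171 and 0.411, in HL60 at 0.561, 0.271 and 0.315, and in THP-1 at 0.204, 0.368 and 0.481. Unlike-numbered arrays gave -0.357 to 0.161 in U937, -0.402 to 0.209 in HL60 and -0.428 to 0.235 in THP-1, so the ranges overlapped in THP-1. Deviations cancel out within a group, so these values are not independent. The numbers come from the labels, and what they mark is not given there. The fit without a block is the one reported, and the blocked value stands beside a result whose call it changes, and beside the counts of genes and probe sets.

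Genes are named by rule: where groups do not overlap, the 15 called genes that rose most and the 15 that fell most, from each list the 5 that changed most, the 6 largest differences from the other lines in each direction, the 6 largest exon differences in each direction in genes changed by under 1 log2 unit, and some fixed genes. Lists have no test of their own. Their counts are to be read against the 14.5% of all genes called higher and 14.2% called lower, and their medians against 0.171. Some genes are in more than 1 list, and the members, lists and rules were chosen with earlier results of these data known.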

Additional observations from a re-analysis of the deposited data

Results flagged for a closer look

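The U937 effect of PMA differed from the mean of those in HL60 and THP-1 for 1436 genes, by limma's test of the difference itself. The largest differences with U937 higher were those of S100A8 (5.67 log2 units), GPR34 (4.89), TM4SF1 (4.68), CCL7 (4.48), SERPINB10 (3.99) and TDO2 (3.97). GPR34, TM4SF1, CCL7 and TDO2 rose in U937. SERPINB10, which already lay below 5.17 in U937 with DMSO, fell least there. The largest with U937 lower were those of CD9 (-5.26), ATP1B1 (-4.59), MSR1 (-4.52), DDIT4L (-4.19), GEM (-3.99) and TNFAIP8L3 (-3.92). Of these, MSR1, DDIT4L and GEM lay below 5.17 in both U937 groups. Each value is a difference between lines that also differ in their levels with DMSO, and its cause was not tested.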

How the results depend on the processing

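No called gene whose change in U937 is given in the report, and no difference or probe set chosen by rule, lost its direction under the alternatives tried, while 8 of all 4667 called genes turned sign with the median of probe sets in place of the mean. The list medians that crossed 0 as deposited were those of phorbol receptors and protein kinase C (-0.04), CDK inhibitors (-0.09), cholesterol synthesis (-0.11) and B cell markers (-0.01). Under settings given in the report, those of oxidative phosphorylation, glycolysis and cholesterol synthesis also did so. The other lists did not change the sign of their median. Settings that moved a count by over 1.5 times were the following. On the values as deposited, 895 genes were called higher against 2350, and 925 differed from the other lines against 1436. With array weights, which gave DMSO 3 a weight of 0.46 and PMA 3 one of 0.43, 8391 genes were called against 4667, 5131 of them higher, 2572 differed from the other lines, and 5883 probe sets were called by diffSplice against 2308. With the array number as a replicate block, 2705 genes differed from the other lines and 5119 probe sets were called. It called 6920 genes in U937, of which 4651 were among the 4667, and among the genes whose change in U937 is given or that the naming rule chose it changed no call beyond those given in the report and those of ITGA2B, PDGFRB, MMP25, EBF1 and CYBC1, which passed (adjusted p = 0.0434, 0.044, 0.0128, 0.027 and 0.0354). Without both arrays numbered 2, 3106 genes were called, 1532 of them higher, 847 differed from the other lines and 908 probe sets were called. With probe sets above the 30th percentile in both U937 groups, 1527 were called of 161762. Leaving out each U937 array in turn gave 3517 to 4748 genes, 1659 to 2418 higher, 1854 to 2330 lower, 1010 to 1405 that differed from the other lines, and 1295 to 3125 probe sets. Quantile normalization called 4458 genes, scaling to a common spread 4342, the 6 U937 arrays by themselves 4080, the median of probe sets 3871, genes above the 30th percentile 4161 of 11766, and genes with 6 or more probe sets 4504. With the 6 U937 arrays by themselves, the spread is not drawn from HL60 and THP-1. The calls of S100A8, SERPINB10, CYP51A1, NDUFV1, CD8A, RASGRP4, DDB2, WARS1, RUNX1 and ESRP1 were then lost. Leaving out both arrays numbered 3, an alternative chosen after seeing the data, called 4503 genes, 1235 differences and 2442 probe sets. Over the named genes and alternatives, 3785 values kept their side of the threshold, 70 passed it and 161 no longer did. The signal over background cannot be told from these values, so changes at levels below 5.17 are least certain.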
